A study of Drosophila melanogaster with 36 samples.

Results

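The enrichment of transcripts on tagged ribosomes of uninjured olfactory receptor neurons, over what the same pulldown recovered without any tagged ribosome, was read from 12 of the 36 libraries of the series. Translating ribosome affinity purification (TRAP) expresses the large-subunit protein RpL10Ab fused to GFP in chosen cells, so that beads against GFP recover ribosomes of those cells together with the mRNAs they carry. Fly heads were used, and all genotypes carried the driver orco-Gal4, which is active in olfactory receptor neurons whose cell bodies lie in the antennae and maxillary palps and whose axons end in the brain. Background animals (w; orco-Gal4/+; ;) had the driver but no GFP::RpL10Ab, and wild type animals (w; orco-Gal4/+; 5xUAS-GFP::RpL10Ab/+;) had both. Each genotype and condition used 300 adult animals, and each group holds 3 libraries, which the labels call technical replicates. The methods speak of biological replication for experiments in general, and the sources do not settle which holds for these libraries. The p-values below measure the spread between these libraries, which may be technical only. No library of the 12 came from dnmnatOE animals or from injured heads, and the age of these animals was not given separately in the sources used here.

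The 4 groups are the input and the pulldown of each genotype, where the input is total RNA of a portion of the lysate after poly-A purification and the pulldown is RNA from the beads without a poly-A step. The contrast of interest is therefore a difference of differences, pulldown minus input in wild type minus pulldown minus input in background, on a log2 scale. A positive value means that a transcript stood higher in the wild type pulldown, relative to its own input, than in the background pulldown. Taking both differences removes what the poly-A step does to a transcript as long as it does the same in both genotypes. In a ribosome pulldown the mRNAs under translation in the driver's cells are expected among the recovered RNA, while RNA that sticks to the beads is recovered in the background pulldown as well. The rows of the contrast are 17611 genes, of which 9395 had counts high enough to test.

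Depth differed strongly between the fractions. Inputs held 13613698 to 20552498 counts on genes, background pulldowns 745706 to 1280180 and wild type pulldowns 644358 to 936868. Input libraries of a group correlated at 0.976 to 0.983 across genes on the log2 scale, background pulldowns at 0.788 to 0.801 and wild type pulldowns at 0.72 to 0.726. The pulldowns, and above all those of the wild type, thus differed more between libraries. The main fit uses 1 estimate of the spread for all 12 libraries, so its errors do not follow this difference between the fractions. Thinned to the depth of the shallowest pulldown, a background pulldown would show 7913 to 8118 genes and a wild type pulldown 6939 to 7064. The 20 most abundant genes took 41.9% to 46.2% of the counts in background pulldowns and 47.5% to 51.5% in wild type pulldowns.

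The targeted gene and the driver gene were read first. RpL10Ab (chromosome 3L, 11822851 to 11824211, plus strand) stood at 3039, 2999 and 3058 counts per 1000000 counts on genes (CPM) in background inputs and at 3209, 3427 and 3319 CPM in wild type inputs. In the pulldowns it stood at 568, 582 and 470 CPM in background and 494, 464 and 501 CPM in wild type, and its contrast was −0.28 ± 0.12 (log2 ± SE, adjusted p = 0.301). Every wild type input lay above every background input, by 0.13 ± 0.08 on the log2 scale, which was not called (adjusted p = 1), and the pulldowns overlapped. The endogenous transcript is made throughout the head and would be counted together with the transgene. Orco (3R, 5407183 to 5412406, minus strand), the co-receptor of the odorant receptors and the marker of the targeted cells, had 8, 1 and 0 counts in background pulldowns and 35, 7 and 1 in wild type pulldowns. The groups overlapped in the counts, the contrast was 2.01 ± 1.18, and it did not pass the test (adjusted p = 0.448). Orco inputs held 361, 368 and 258 counts in background and 600, 535 and 506 in wild type, or 15.4 to 16.3 CPM against 23.1 to 29.1 CPM.

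Of the 60 odorant receptor genes counted with Orco, 40 had no count in any of the 6 pulldowns and 9 passed the filter on low counts. None of these 9 was called by edgeR or limma, while DESeq2 called 1 higher, Or43b, and 1 of the 9 had an unadjusted p under 0.05 in edgeR. Of the 9, 6 lay above 0, and their median contrast was 2.01, against −0.08 over all 9395 genes. By library, the median over the 9 relative to background was 1.65, −0.75 and −0.83 in the background pulldowns. In the wild type pulldowns it was 0.40, 1.00 and 1.00, so background replicate 1 lay above every wild type pulldown. These wild type medians are values of genes without a count there, Or85e in replicate 1 and Or7a in replicates 2 and 3. Or7a had the same enrichment value in every library of a genotype, −2.45 in background and −1.45 in wild type. The wild type medians therefore hold no receptor signal from the pulldowns. Summed over the 60 genes, the level was 12.2 to 32.3 CPM in background pulldowns and 55.5 to 69.8 CPM in wild type pulldowns, and these ranges did not overlap. The summed inputs were 39.1 to 42.7 CPM in background and 50.1 to 56.4 CPM in wild type, which did not overlap either. Or43b carried most of this sum beside Orco, with 13 counts over the background pulldowns and 42 over the wild type pulldowns (contrast 2.56, adjusted p = 0.205 in edgeR and 0.00485 in DESeq2). Most single receptors had too few pulldown counts to be tested at this depth.

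Across all genes 25 were called higher and 62 lower in the wild type, where a call needed an adjusted p not above 0.05 together with a log2 change beyond 0.6. These are 0.926% of the genes tested, 0.266% higher and 0.660% lower, and 1336 genes had an unadjusted p under 0.05. The enrichment values of the 3 wild type pulldowns lay wholly apart from those of the 3 background pulldowns for all 87 genes called, but they also did so for 20.4% of all genes tested, 7.31% with the wild type higher and 13.1% with it lower. The call rests on 1 estimate of the spread for both fractions. With limma and a separate weight for each fraction, 3 genes were called higher and 10 lower, of which 2 and 9 are among the 87. These 11 genes are AP-2sigma and hpRNA:CR46342 on the higher side, and Col4a1, tou, trol, Msp300, sls, shot, Slik, Ppn and lncRNA:CR46006 on the lower side. Of 9501 genes that DESeq2 tested it called 320 higher and 485 lower, totals against which its calls in the gene lists have to be read. Its calls held 85 of the 87. The count also moved with single libraries: without any 1 input library 8 to 10 genes were called higher and 19 to 23 lower, without 1 background pulldown 20 to 25 and 48 to 69, and without 1 wild type pulldown 64 to 82 and 159 to 166. Called whichever of the 12 libraries was left out were 27 genes, and with the settings of the other alternatives as well 9 genes. The 9 are AP-2sigma, Col4a1, Msp300, Ppn, shot, Slik, sls, tou and trol. The other 18 are Arc1, CG10433, CG1213, CG8206, CG9512, CHKov1, CR10102, Hml, lncRNA:CR34335, lncRNA:CR40469, lncRNA:noe, mt:CoI, Nplp3, Pu, RpL5, RpS19a, RpS2 and RpS28b, and each further call named below was lost without at least 1 library. The exons of 20 of the 87 overlap those of another gene on either strand, among them Msp300, sls, COX6B, pr, Pxn, ChT and CG10433. The share over all genes tested was not counted, so the 20 are a caution about these genes only. Whether the counting used strand is not given in the sources used here, so reads of such genes may not be told apart.

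**Figure D1:**
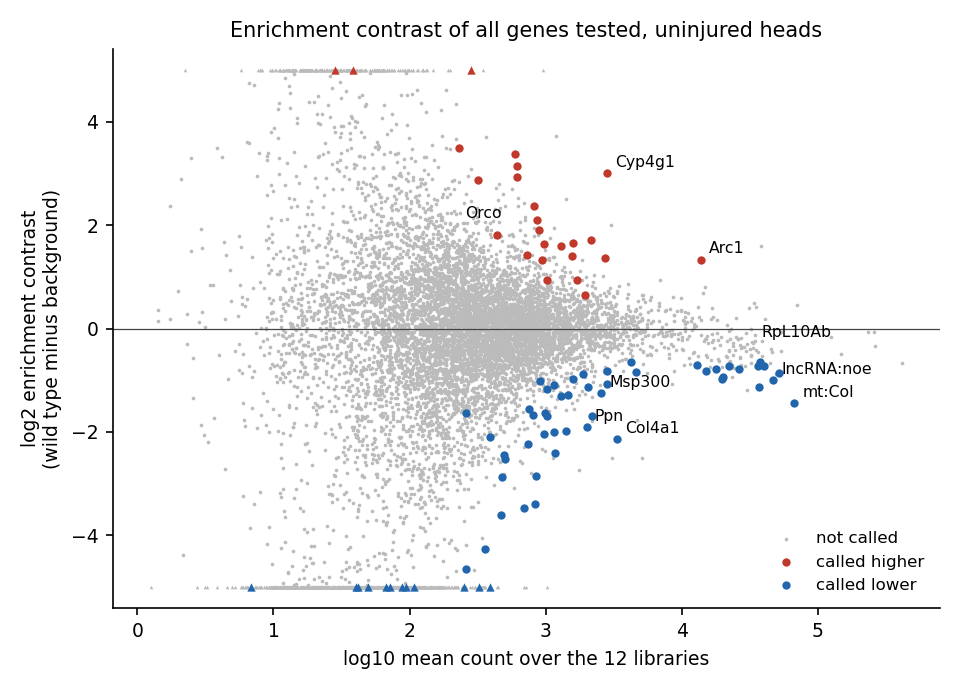
Log2 enrichment contrast (wild type minus background) against the log10 mean count over the 12 libraries for the 9395 genes tested, with genes called higher in red and lower in blue. Triangles mark values beyond 5 in either direction, drawn at 5. The 62 genes called lower include well-counted ones such as mt:CoI and lncRNA:noe, while Orco is at 2.01 among genes that were not called.

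A contrast can move through its pulldowns or through its inputs, and each part was fitted by itself. The pulldown part, wild type pulldown minus background pulldown, called 190 genes higher and 269 lower (4.89% of genes tested, 2.02% higher and 2.86% lower). The input part called 99 higher and 27 lower (1.34%, 1.05% higher and 0.287% lower). Of the 87 genes of the contrast, 69 were called in the pulldown part in the same direction, 20 of them higher and 49 lower. For 14 genes the input part was called in the opposite direction, and 6 genes were called in neither part. The sections that follow take the genes by which part moved and by what they encode.

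**Figure D2:**
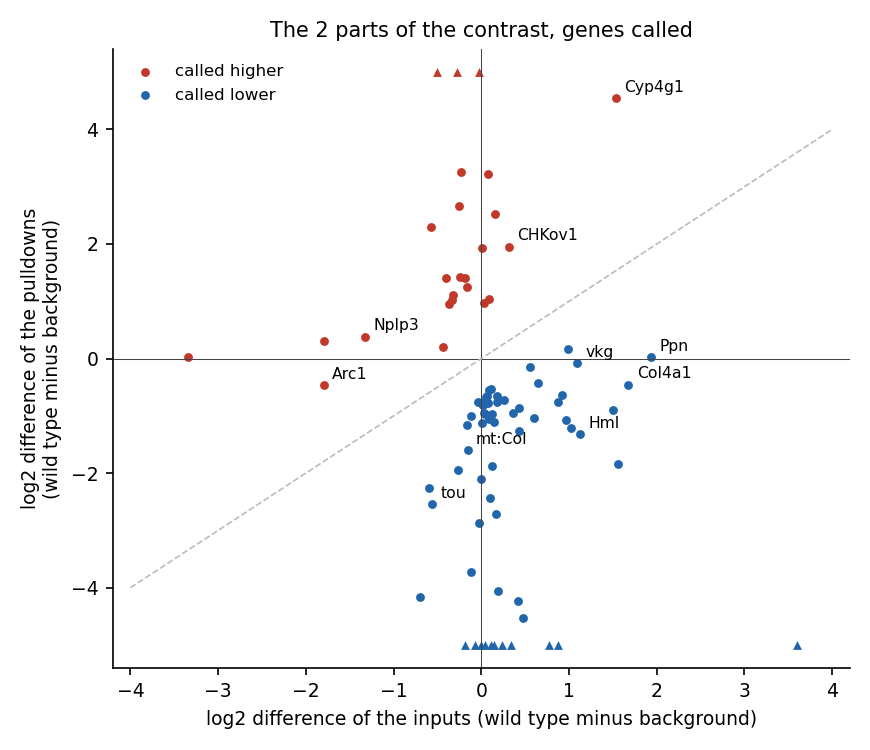
Log2 difference between wild type and background in the pulldowns (vertical) against that in the inputs (horizontal) for the 87 genes called, in red where the contrast was higher and in blue where it was lower. The dashed line marks equal change in both parts, and triangles mark pulldown differences beyond 5. Most genes lie along the vertical axis, whereas Arc1 and Nplp3 lie to the left and Col4a1, Ppn, Hml and vkg to the right.

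Col4a1 and vkg, the 2 chains of collagen IV, Ppn (papilin), trol (perlecan) and Pxn (peroxidasin) are basement membrane genes, and Hml (hemolectin) marks haemocytes, the blood cells of the fly. All 6 were lower in the contrast. For Col4a1 (2L, 5029609 to 5037279, plus strand) the pulldowns stood at 483, 505 and 589 CPM in background and at 369, 415 and 367 CPM in wild type. Its inputs stood at 143, 145 and 146 CPM in background and at 440, 486 and 462 CPM in wild type. The contrast was −2.13 ± 0.16 (adjusted p = 4.75e-06), the smallest adjusted p of all genes, and the input part of 1.68 was larger in size than the pulldown part of −0.45. Ppn (3R, 28520665 to 28540324, minus strand) moved in its inputs alone, from 76.2, 82.1 and 66.7 CPM in background to 298, 277 and 287 CPM in wild type, at 353, 210 and 301 CPM against 216, 426 and 242 CPM in the pulldowns. Its contrast was −1.91 ± 0.32 (adjusted p = 0.00619). The contrast of vkg was −1.17 ± 0.24 (adjusted p = 0.0302) with pulldowns that overlapped in CPM, and that of Pxn was −1.56 ± 0.33 (adjusted p = 0.0354).

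Hml differed in both parts. Its pulldowns fell from 131, 145 and 134 CPM in background to 44.8, 54.4 and 66.2 CPM in wild type, and its inputs rose from 21, 29.2 and 31.3 CPM to 56.2, 71.8 and 49.9 CPM (contrast −2.45 ± 0.36, adjusted p = 0.00295). trol moved mainly in the pulldowns, at 1364, 1260 and 1347 CPM in background and 736, 695 and 757 CPM in wild type, with inputs at 84.7 to 89.3 CPM and 108 to 127 CPM (contrast −1.29 ± 0.14, adjusted p = 0.000138). Of 10 haemocyte markers 9 were tested, 4 were called lower and none higher, against 0.660% of all genes called lower. Their median was −0.89 in the contrast, −0.08 in the pulldown part and 1.13 in the input part, where 7 of the 9 were called higher. The other members went both ways and were not called in the contrast by edgeR. eater, a phagocytosis receptor, had no count in the background pulldowns and 13, 15 and 7 in the wild type pulldowns, with inputs of 150, 181 and 97 counts against 1300, 1336 and 1072. It was called higher in the pulldown part, and its fitted contrast lay above 0 (adjusted p = 0.163). The scavenger receptor genes Sr-CI (0.22) and crq (0.11) lay above 0, the receptor gene NimC1 (−0.56) and the GATA factor gene srp (−0.89) below, and He was too low to test. DESeq2 called srp lower as well. Without 1 of the 6 inputs, or without background pulldown replicate 1, 2 of these markers stayed called, and with limma Col4a1 alone. The summed input level of the 10 markers was 418 to 440 CPM in background and 1067 to 1115 CPM in wild type, while the summed pulldown level was 1059 to 1144 CPM and 813 to 928 CPM. The inputs of the wild type thus held more haemocyte RNA, and whether these heads held more haemocytes or more RNA per cell cannot be told apart in bulk samples.

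Other genes with a higher wild type input went the same way. Apoltp, a lipid transfer particle protein of the fat body, stood at 278, 289 and 280 CPM in background inputs and 564, 564 and 558 CPM in wild type inputs, with overlapping pulldowns (contrast −0.83 ± 0.16, adjusted p = 0.0221). Mtp, the microsomal triacylglycerol transfer protein, had a contrast of −2.03 ± 0.45 (adjusted p = 0.0409). Of the 13 fat body markers these 2 were called, both lower, against 0.660% of all genes called lower, and the list median was −0.22. In the input part 2 of the 13 were called higher and 1 lower, and in the pulldown part 1 higher and 1 lower. Summed fat body levels were 63210 to 63450 CPM in background inputs and 65880 to 68750 CPM in wild type inputs. Also lower were TotA, a secreted stress protein of the Turandot family (−3.40 ± 0.77, adjusted p = 0.0451), and CG9512 (−2.23 ± 0.29, adjusted p = 0.000906). The part of the inputs' composition in these contrasts was not tested.

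Arc1, the retroviral-like capsid gene that takes part in neuronal signalling, showed the opposite pattern. Its inputs fell from 1920, 2146 and 1958 CPM in background to 560, 581 and 590 CPM in wild type, and its pulldowns stood at 839, 763 and 905 CPM and at 576, 612 and 626 CPM. The contrast was therefore higher, at 1.33 ± 0.13 (adjusted p = 4.33e-05), although every wild type pulldown lay below every background pulldown. CR10102, a pseudogene just beside Arc1 on 2R (Arc1 at 14357927 to 14360297 on the minus strand, CR10102 at 14360433 to 14361780), moved with it, with inputs at 130, 119 and 126 CPM in background and 38, 38.5 and 31.9 CPM in wild type (contrast 2.10 ± 0.33, adjusted p = 0.0044). Reads of a gene and of a close copy or neighbour cannot be told apart here if the counting split them. Nplp3, which encodes a neuropeptide-like precursor, had inputs at 288, 276 and 315 CPM against 117, 124 and 110 CPM and overlapping pulldowns (contrast 1.70 ± 0.24, adjusted p = 0.00233). snoRNA:Psi28S-3436b, which guides a modification of 28S rRNA, was called through inputs of 8, 7 and 2 counts against 1, 0 and 0, with a pulldown difference of 0.03.

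Of the 25 genes called higher, 20 were called higher in the pulldown part too. Those of them that stayed called whichever library was left out, beside AP-2sigma, were CHKov1, Pu, CG8206 and CG10433. CHKov1, which encodes a protein with a choline kinase-like domain, stood at 77.3, 74.6 and 70.2 CPM in background pulldowns and at 236, 348 and 281 CPM in wild type pulldowns, with inputs of 74.7 to 83.5 CPM and 81.7 to 110 CPM (contrast 1.64 ± 0.26, adjusted p = 0.00553). Pu (Punch) encodes GTP cyclohydrolase, the entry enzyme of pterin synthesis. Its pulldowns rose from 80.7, 92.7 and 71.7 CPM to 219, 234 and 202 CPM at inputs of 123 to 128 CPM and 104.5 to 117 CPM (contrast 1.59 ± 0.23, adjusted p = 0.00233). CG8206 (X, 15739230 to 15740417, plus strand) stood at 94.3, 99.1 and 94.6 CPM against 315, 234 and 218 CPM in the pulldowns (contrast 1.66 ± 0.23, adjusted p = 0.00196), and CG10433 at 128, 159 and 122 CPM against 234, 343 and 258 CPM (contrast 1.36 ± 0.22, adjusted p = 0.00554).

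The enzyme that follows Pu in pterin synthesis is encoded by pr (purple), with pulldowns at 17, 9.59 and 7.63 CPM against 79, 28.9 and 66.2 CPM (contrast 2.88 ± 0.61, adjusted p = 0.0326). The 8 further pterin and eye pigment genes looked up, after these 2 values were known, were not called, and their contrasts went both ways. Pcd stood at 2.05 (adjusted p = 0.2), se at 1.35, cl at 1.08, Hn at 0.17, w at 0.04, ry at −0.63, bw at −1.45 and Sptr at −2.41. The pigment transporter gene w, whose mutation all genotypes carry, had pulldown counts of 16, 13 and 22 in background and 18, 6 and 26 in wild type, which overlapped.

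Among secreted and detoxifying products, Cyp4g1, the P450 enzyme that completes cuticular hydrocarbon synthesis in oenocytes, had 1, 12 and 4 counts in background pulldowns and 68, 133 and 69 in wild type pulldowns. Its inputs also differed, at 144, 141 and 131 CPM against 405, 396 and 407 CPM, and the contrast of 3.01 ± 0.57 (adjusted p = 0.0179) is what the pulldowns gained beyond the inputs. It was the only one of 73 cytochrome P450 genes tested that edgeR called in the contrast, against 0.926% of all genes, and their median was −0.24. DESeq2 called 5 of the 73 higher and 3 lower, against 320 and 485 of all 9501 genes it tested. GstE4, a glutathione S-transferase, had 4, 8 and 1 counts against 43, 25 and 19 (contrast 3.49 ± 0.72, adjusted p = 0.0302). a10, an abundant secreted protein of the antenna, had 10, 4 and 5 counts against 21, 37 and 16 (contrast 2.38 ± 0.52, adjusted p = 0.0386), and was the only antennal support cell marker called of 13 tested, whose median was 0.10. Others called higher were Mtap, an enzyme of methionine salvage (2.93 ± 0.58), cib, an actin-binding protein of the thymosin-β family (1.81 ± 0.40), crc, the fly homologue of ATF4 (1.32 ± 0.29), the kinase genes Pka-C3 (1.43 ± 0.33) and hep (0.94 ± 0.21), and Zasp66 (0.94 ± 0.20) and kraken (1.40 ± 0.27), with adjusted p of 0.0221 to 0.0499. CG40486, with 9, 9 and 8 counts against 108, 19 and 50, and CG8818, with 20, 19 and 21 against 69, 31 and 62, were called higher as well.

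AP-2sigma, the small subunit of the clathrin adaptor AP-2, was called by edgeR, DESeq2 and limma alike. It had no count in the 3 background pulldowns and 10, 15 and 18 counts in the wild type pulldowns. Taking 3 counts over the background group as the floor, it was at least 20.8-fold higher in the pulldowns and, with inputs of 494 to 778 counts in background and 444 to 478 in wild type, at least 29.6-fold higher in the contrast. hpRNA:CR46342, a hairpin RNA, was likewise at 0 against 11, 17 and 15 counts, at least 20.8-fold higher in the pulldowns, and CG5727 at 0 against 8, 3 and 7 counts, at least 8.72-fold. These folds cover counting error only. In the injured libraries read below, AP-2sigma had 4, 14 and 2 counts in background pulldowns and 10, 2 and 1 in wild type pulldowns.

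Absence from the wild type pulldowns was more frequent. Of the 62 genes called lower, 9 had no count in any wild type pulldown, and among all genes tested 92 had none there but at least 20 counts over the background pulldowns, against 13 the other way round. Among the 9 genes are Scr, a Hox gene of the head and thorax, with 13, 7 and 12 counts in background pulldowns (at least 7.34-fold lower in wild type), Pvf1, a PDGF- and VEGF-related ligand, with 16, 18 and 4 (at least 8.72-fold), and ChT, a choline transporter, with 17, 17 and 7 (at least 9.40-fold). Also at 0 in the wild type pulldowns were PrBP, CG4872, CG10738, CG8854, CG8630 and fzo, and their bounds in the pulldowns ran from 7.11-fold to 13.3-fold. The receptor gene fz (frizzled) had 52, 21 and 14 counts against 0, 0 and 1, a pulldown ratio of 59.9 (95% interval 10.5 to 2391). For lncRNA:CR46006, with 22, 34 and 15 counts against 1, 0 and 0, the ratio was 48.9 (8.49 to 1957). qsm had a ratio of 22 (5.85 to 186), Fie 18.6 (6.14 to 92) and HIP-R 17.6 (4.62 to 149), and CG10185 and PI31, a proteasome regulator, had 4 counts each over the wild type pulldowns. The 95% intervals here come from counts summed over the 3 libraries of a group. They cover counting error and not the spread between libraries. The wild type pulldowns were also shallower and held fewer genes at equal depth, as given above, and the part of this in the absences was not tested.

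Giant cytoskeletal genes stood among those lower in the pulldown. Msp300 (2L, 5100877 to 5207002, plus strand), a nesprin that links nuclei to the cytoskeleton, stood at 5071, 4743 and 5101 CPM in background pulldowns and 2714, 1811 and 2421 CPM in wild type pulldowns, while inputs stood at 89.5 to 103.5 CPM and 95.7 to 118 CPM. The contrast was −1.25 ± 0.17 (adjusted p = 0.00195). The titin gene sls fell from 2563, 2318 and 2369 CPM to 1420, 1087 and 1199 CPM (−1.09 ± 0.16, adjusted p = 0.00233), and the spectraplakin gene shot from 2186, 2446 and 2072 CPM to 1090, 1244 and 1025 CPM (−0.88 ± 0.14, adjusted p = 0.00554). Each of the 3 was far above its input level in the background pulldowns too, where no tagged ribosome was present. The fall was not shared by the list: of 22 giant cytoskeletal and motor genes tested, these 3 were called, none was called higher, and the median was −0.08, the same as over all genes. Over all genes 0.660% were called lower. Outside the ribosomal protein list, 13% of the 54 genes with a mean pulldown count over 1000 were called lower. How many of the 22 lie in that range was not counted, so whether the 3 calls are a trait of the list cannot be said. The spectrin and dynein genes alpha-Spec (0.25), beta-Spec (−0.08) and Dhc64C (−0.09) did not pass the test. Also lower were the filamin gene jbug (−1.14 ± 0.25, adjusted p = 0.0409) and dpy, a giant extracellular matrix protein (−1.01 ± 0.21, adjusted p = 0.0304), and sls was the only muscle marker called of 15 tested.

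A large shift in well-counted pulldowns was that of tou, which encodes a nuclear protein of chromatin remodelling (2R, 11577485 to 11616045, minus strand). Its pulldowns fell from 1183, 1148 and 1147 CPM to 178, 180 and 242 CPM, its inputs from 122 to 131 CPM to 80.5 to 91.8 CPM, and the contrast was −1.98 ± 0.18 (adjusted p = 2.4e-05). Slik, a kinase gene, fell from 2755, 2589 and 2568 CPM to 1532, 1668 and 1852 CPM (−0.82 ± 0.13, adjusted p = 0.00558). The polarity gene baz (−1.63 ± 0.36) and AGO2, the Argonaute of the siRNA pathway (−0.98 ± 0.21), were lower as well, at adjusted p of 0.0386 and 0.0326.

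**Figure D3:**
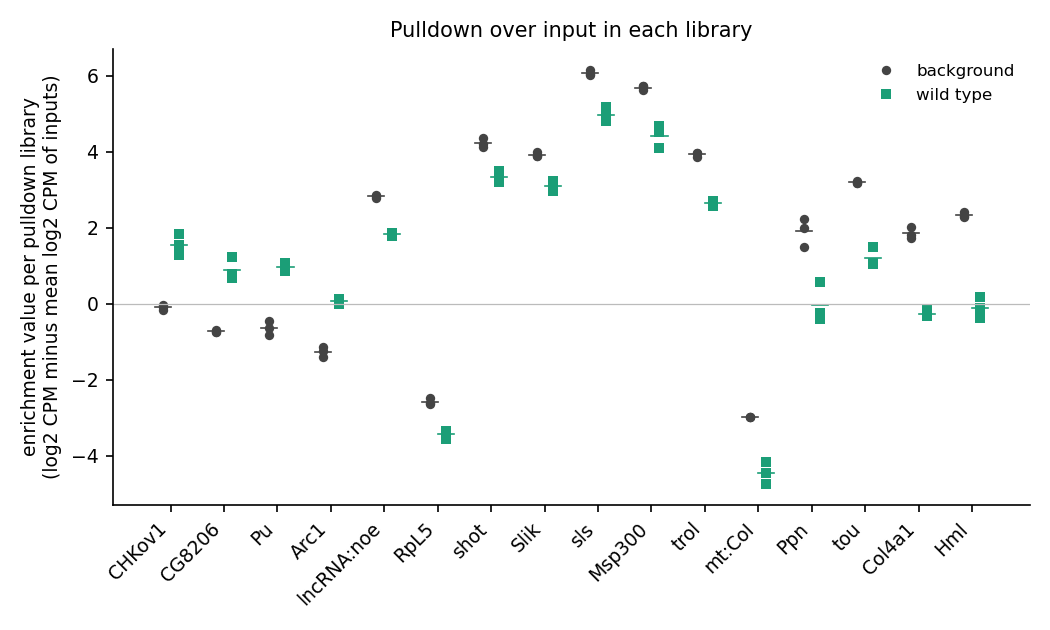
Enrichment value of each pulldown library (its log2 CPM minus the mean log2 CPM of the inputs of its genotype) for 16 genes called, background as circles and wild type as squares, with short lines at the group means. The 3 values of each genotype lie apart for every gene shown, as they do for all 87 genes called and for 20.4% of all genes tested. Genes called lower were above 0 in background for sls, Msp300, shot, trol and tou, and below 0 for RpL5 and mt:CoI.

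The calls among messenger RNAs of the ribosome itself were all on the lower side. Of 91 cytosolic ribosomal protein genes 84 were tested, 11 were called lower and none higher. Below 0 lay 81 of the 84, against 5040 of all 9395 genes, with a median of −0.50 against −0.08 over all genes. The median was −0.34 in the pulldown part and 0.08 in the input part. RpL5 stood at 852, 773 and 778 CPM in background pulldowns and 492, 484 and 433 CPM in wild type pulldowns (−0.85 ± 0.10, adjusted p = 0.00052). RpS2 stood at 568, 605 and 562 CPM against 369, 333 and 317 CPM (−0.73 ± 0.11, adjusted p = 0.00368). RpS19a (−0.94 ± 0.15) and RpS28b (−0.82 ± 0.14) had adjusted p of 0.00459 and 0.00783, and the largest fall of the 11 was that of RpS26 (−1.14 ± 0.21, adjusted p = 0.0154). By library the list median, relative to background, was −0.36, −0.54 and −0.49 in the wild type pulldowns and −0.06 to 0.02 in the background pulldowns. Over all genes 0.660% were called lower, but these are well-counted genes. All 11 have a mean pulldown count between 100 and 1000, where 70 of the 84 lie, and among the 1019 other genes in that range 1.67% were called lower. The count depends on the setting. limma with a weight per fraction called none of the 84 and DESeq2 16, without 1 input library 4 or 5 were called, without 1 wild type pulldown 18 or 19, and with all 36 libraries 22. edgeR called none of 46 translation initiation and elongation factors, of which 9 had an unadjusted p under 0.05 and DESeq2 called 2 higher and 1 lower, and their median was 0.11. Most ribosomal protein mRNAs lay well below their input level in both pulldowns, as RpL5 did with inputs of 4683 to 5128 CPM.

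Transcripts of the mitochondrial genome, are translated on mitochondrial and not on cytosolic ribosomes, and 1 of them was called, on the lower side. mt:CoI stood at 860, 863 and 862 CPM in background pulldowns and 342, 277 and 227 CPM in wild type pulldowns, with inputs of 6735 to 6827 CPM and 5907 to 6372 CPM (−1.45 ± 0.14, adjusted p = 4.33e-05). It was the only one of 12 mitochondrial mRNAs tested that edgeR called, against 0.660% of all genes called lower. DESeq2 called 4 of the 12 lower, against 485 of all 9501 genes it tested, and limma called none. Of the 12, 11 lay below 0, against 5040 of all 9395 genes, and their median was −1.14. The next, mt:CoIII, stood at −1.20 (adjusted p = 0.064). Among 69 nuclear genes of the respiratory chain COX6B alone was called by edgeR, against 0.926% of all genes tested (DESeq2 called 2 higher and 3 lower). COX6B had 92, 49 and 37 counts in background pulldowns and 12, 9 and 10 in wild type pulldowns (−1.69 ± 0.30, adjusted p = 0.0132), and the list median was 0.08.

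**Figure D4:**
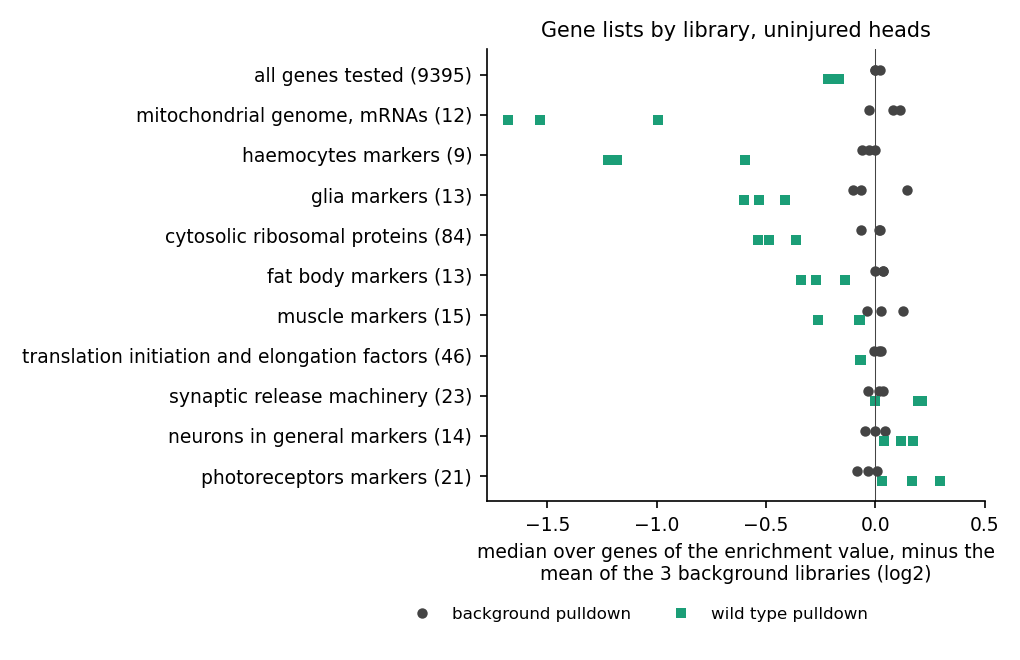
Median enrichment value of gene lists in each pulldown library, minus the mean of the 3 background libraries for each gene, on a log2 scale, with the number of genes tested in brackets. Circles are background and squares wild type pulldowns. Of the lists drawn, mitochondrial mRNAs (−0.99 to −1.68), haemocyte markers (−0.59 to −1.22), glial markers and ribosomal protein mRNAs (−0.36 to −0.54) lie farthest to the left in wild type, where all genes tested lie at −0.17 to −0.22.

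Calls also fell on noncoding RNA. Of 238 noncoding RNA genes tested 6 were called lower and 1 higher, or 2.94%, against 0.868% of 8991 protein-coding genes. The most abundant was lncRNA:noe, a polyadenylated noncoding RNA of the nervous system, at 26950, 27870 and 28440 CPM in background pulldowns and 12110, 12760 and 12580 CPM in wild type pulldowns, with inputs of 3729 to 4249 CPM and 3312 to 3869 CPM (−0.99 ± 0.10, adjusted p = 4.69e-05). lncRNA:CR40469 stood at 320, 250 and 384 CPM against 138, 132 and 125 CPM in the pulldowns (−1.69 ± 0.26, adjusted p = 0.0044). lncRNA:CR34335 differed mainly in its inputs (−2.40 ± 0.41, adjusted p = 0.00742), and lncRNA:Hsromega, the heat shock noncoding RNA, was at −0.64 ± 0.14 (adjusted p = 0.0363).

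The 7SL RNA of the signal recognition particle, which binds ribosomes at the endoplasmic reticulum, is annotated as a pair of genes. 7SLRNA:CR32864 (3R, 6822500 to 6822798, plus strand) had 5, 4 and 4 counts in background pulldowns and 455, 300 and 319 in wild type pulldowns, a ratio of 120 (95% interval 69.9 to 226, counting error only). Its inputs held 0, 0 and 0 counts in background and 1, 2 and 6 in wild type, so the contrast had almost no input to subtract and was not called (adjusted p = 0.916). 7SLRNA:CR42652 had 68, 1 and 3 counts against 11, 17 and 18, which overlapped, and none in any input. The 2 genes are near-identical copies, and how reads were shared between them is not known here. None of the 113 rRNA genes and none of the 295 tRNA genes in the lists passed the filter on low counts, and of 112 small nucleolar RNAs tested edgeR called 1 higher, where DESeq2 called 2 higher and 2 lower. Of 23 rRNA pseudogenes 9 were tested, and edgeR called none in the contrast, limma 1 higher and DESeq2 2 higher. In the pulldown part 3 were called higher. Summed over the 23, the level was 217000 to 310000 CPM in background pulldowns and 376400 to 482600 CPM in wild type pulldowns. These ranges did not overlap. Summed inputs were 2.9 to 5.51 CPM in background and 2.96 to 9.82 CPM in wild type.

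Markers of the cell types a head holds gave the following picture. Of 14 general neuronal markers and 21 photoreceptor markers edgeR called none in the contrast, with medians of 0.13 and 0.12 and with 2 and 4 genes at an unadjusted p under 0.05. DESeq2 called 1 photoreceptor marker higher, Gbeta76C, and no neuronal marker. The summed level of the photoreceptor markers was 52890 to 53080 CPM against 36880 to 37540 CPM in the inputs and 26380 to 27090 CPM against 20720 to 21740 CPM in the pulldowns. ninaE, the major rhodopsin, had a contrast of −0.07 (adjusted p = 0.715) although its input part was −0.65. None of 13 glial markers was called by edgeR, 2 had an unadjusted p under 0.05, and the median was −0.49. Of the 13, 10 lay below 0, against 5040 of all 9395 genes. DESeq2 called 1 of them lower, the engulfment receptor gene drpr. The marker list of antennal ionotropic receptor neurons had 9 genes tested and none called by edgeR in the contrast, with 1 at an unadjusted p under 0.05. In the pulldown part 1 of them was called higher. DESeq2 called Ir76b higher, and in edgeR its contrast was 4.33 (adjusted p = 0.0782). Its enrichment values lay apart, at −4.78 to −0.65 in background and 1.41 to 3.23 in wild type. The list had 4 genes above 0 and 5 below. Genes of axon death and NAD metabolism, among them Nmnat (0.32, adjusted p = 0.901) and Sarm (0.03, adjusted p = 0.984), had 9 tested, none called by edgeR, limma or DESeq2, and none at an unadjusted p under 0.05. The others were axed (2.14), wnd (0.16), Naprt (−0.21), hiw (−0.32), Nadsyn (−0.34), Nmdmc (−0.98) and Naam (−1.59).

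The same contrast was read in 12 libraries of injured heads, 7 days after removal of antennae and palps, which share no library with those above. Removal takes the cell bodies of the driver's neurons, and Orco inputs held 16 to 19 counts in background and 6 to 62 in wild type. In a fit of all 24 libraries with 9284 genes tested, 54 genes (0.582%) were called for the injured contrast, 0.291% in each direction. Of the 87 genes called in uninjured heads 56 had the same sign in injured heads, 15 of the 25 higher and 41 of the 62 lower, while the share was 52.7% over all 9146 genes tested in both. In the same direction 11 of the 87 were also called. They are CG10737 (−0.91), Col4a1 (−1.31), vkg (−1.49), Ppn (−1.46), Pxn (−1.97), Hml (−1.39), CG9512 (−1.66), lncRNA:CR40469 (−1.74) and lncRNA:CR34335 (−2.31) on the lower side and Arc1 (1.05) and Nplp3 (2.86) on the higher side. Inputs of injured wild type heads also stood apart from those of injured background heads, with Col4a1 at 438 to 518 CPM in background and 2338 to 2463 CPM in wild type and Cyp4g1 at 376 to 380 CPM against 3109 to 3139 CPM.

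The difference between the uninjured and the injured contrast was called for 47 of 9284 genes (0.506%, of which 0.205% higher and 0.302% lower before injury), and 20 of these are among the 87. The test holds the same uninjured libraries that gave the 87 calls. Genes called there are therefore favoured in it, and the overlap is no independent finding. lncRNA:noe turned from −0.99 to 0.97 (adjusted p of the difference 8.6e-10), with injured pulldowns at 14960, 14580 and 14860 CPM in background and 20650, 19580 and 19940 CPM in wild type. mt:CoI went from −1.45 to 0.47 (adjusted p = 0.000201) and Msp300 from −1.25 to 0.09 (adjusted p = 0.00623). CHKov1 went from 1.64 to −0.29 (adjusted p = 0.014) and Cyp4g1 from 3.01 to −0.03 (adjusted p = 0.0107). The medians of the mitochondrial mRNAs were −1.14 before and 0.86 after injury, and those of the ribosomal protein mRNAs −0.50 and −0.21, with 70 of 84 below 0 after injury. The transcript 7SLRNA:CR32864 was again high only in wild type pulldowns, with 6, 2 and 1 counts against 356, 653 and 691. Injured and uninjured libraries differ in animals and preparation as well as in injury, which cannot be told apart.

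**Figure D5:**
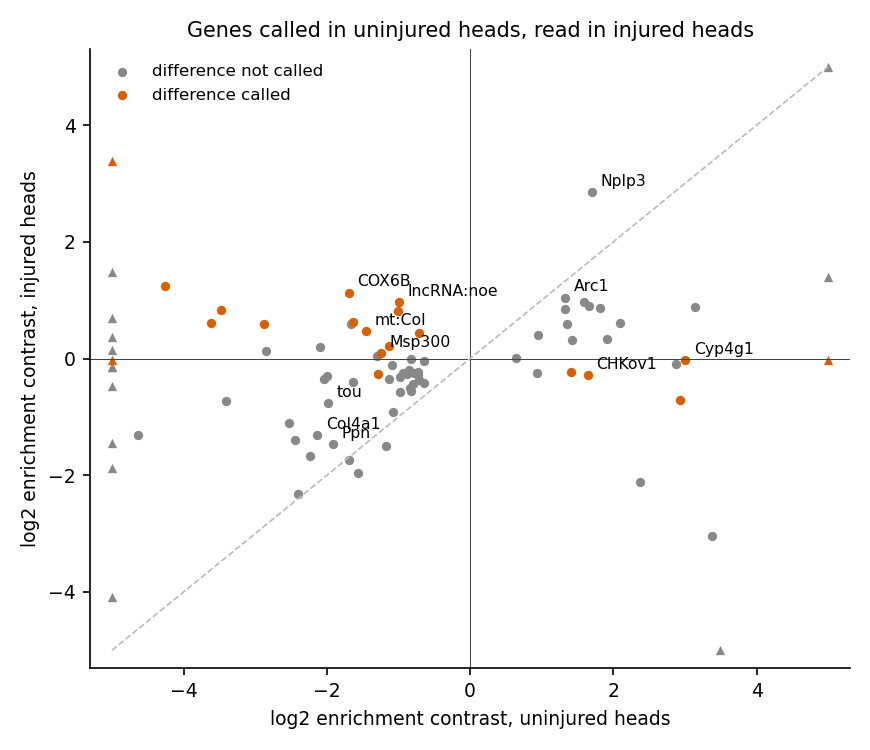
Log2 enrichment contrast of the 87 genes called in uninjured heads (horizontal) and of the same genes in injured heads (vertical), which come from other libraries. Orange marks the 20 genes whose difference between the conditions was called, the dashed line marks equal values, and triangles mark genes beyond 5 on either axis. Col4a1, Ppn, Arc1 and Nplp3 keep their sign, and lncRNA:noe and mt:CoI change theirs.

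In the third uninjured genotype, dnmnatOE, the second chromosome is orco-Gal4/5xUAS-dnmnat, and the tagged ribosome comes from 5xUAS-GFP::RpL10Ab/+ as in the wild type. Its contrast called 3.41% of 9847 genes tested, 1.67% higher and 1.75% lower, and it uses the same 6 background libraries, so that the values are given side by side only. Orco stood at 1.47 there (2.01 in wild type), Pu at 2.82 (1.59), CG10433 at 2.71 (1.36), CG8206 at 1.63 (1.66) and CHKov1 at 2.24 (1.64). The 0 of AP-2sigma in background is that of the same background pulldowns and is no second observation. On the lower side tou stood at −1.51 (−1.98), RpL5 at −1.32 (−0.85), mt:CoI at −1.24 (−1.45) and lncRNA:noe at −3.62 (−0.99), whereas Msp300 stood at 0.45 (−1.25) and sls at 0.31 (−1.09). RpL10Ab stood at −1.20 (−0.28).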

How the data were processed

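Counts of 12 libraries (input and pulldown of background and wild type heads, 3 each) were analysed, with 12 libraries of injured heads and 6 of dnmnatOE heads for comparison. Per the methods, the authors trimmed paired reads with Trimmomatic, aligned them with Hisat2 to the FlyBase genome and counted them per gene with Htseq-Count; the deposited files hold whole-number counts, unnormalised. Tool versions, counting mode and strand setting are not given in the sources used here. Of all reads in the files, those assigned to more than 1 gene came to 2.81% to 3.18% in inputs and 52.8% to 60.3% in pulldowns, and those on no gene to 1.28% to 1.56% and 7.98% to 10.0%; both were left out of library sizes and tests. Neither fraction was depleted of rRNA.

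Genes were filtered with filterByExpr, scaled by TMM over the 12 libraries, and fitted with edgeR 4.0.16 (quasi-likelihood, robust, 4 groups, R 4.3.3), with Benjamini-Hochberg adjustment over all genes tested. Calls required an adjusted p no larger than 0.05 with a log2 change beyond 0.6. CPM values use the TMM library sizes, and log2 CPM a prior count of 2. Each SE was derived from the F test, as the absolute log2 value over the square root of F. It therefore rests on the same shared estimate of the spread as the p-values. The coefficient of variation was 0.314. The injured and difference contrasts came from 24 libraries, the dnmnatOE contrast from 18. Tests were checked on simulated counts. Alternatives were DESeq2 1.42.0, limma 3.58.1 with weights per fraction, other scalings and filters, all 36 libraries, a block for replicate number and leaving out each library on the same genes.

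Named were RpL10Ab, Orco and w; the 12 largest called changes in each direction with a mean count of at least 50 and groups apart; up to 4 called members of each list (or 2 by count where none was called); and all members of lists of at most 10. Lists without a call in edgeR that the text does not describe are left out with their members, and for some described the most counted members are not named. Other called genes, and the pterin genes, were named after their values were seen. The comparison and the lists were chosen with earlier results of these data known. Symbols and Release 6 coordinates are from Ensembl and matched 17559 of 17611 identifiers.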

Additional observations from a re-analysis of the deposited data

Results flagged for a closer look

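For 20 of the genes called before injury, the contrast differed between uninjured and injured heads by the test of the difference itself (edgeR, 24 libraries, adjusted p at most 0.0465). Each is given with the log2 contrast in uninjured and in injured heads and the tested difference, which comes from the fit of 24 libraries and so need not equal the gap of the first values exactly. Lower before injury were, with counts in every uninjured wild type pulldown, lncRNA:noe (−0.99 and 0.97, a difference of −1.90), mt:CoI (−1.45 and 0.47, a difference of −1.85), Msp300 (−1.25 and 0.09, a difference of −1.26), dpy (−1.01 and 0.81, a difference of −1.76), lncRNA:CR42862 (−0.71 and 0.44, a difference of −1.08), CG5853 (−2.88 and 0.59, a difference of −3.40), baz (−1.63 and 0.63, a difference of −2.20), COX6B (−1.69 and 1.13, a difference of −2.75), trol (−1.29 and −0.26, a difference of −0.96) and jbug (−1.14 and 0.22, a difference of −1.29). With no count in at least 1 of these pulldowns they were lncRNA:CR46006 (−5.85 and 3.39, a difference of −9.17), HIP-R (−4.25 and 1.24, a difference of −5.42), PI31 (−3.61 and 0.60, a difference of −4.14), Fie (−3.48 and 0.84, a difference of −4.24) and qsm (−5.01 and −0.03, a difference of −4.90). Higher before injury were Cyp4g1 (3.01 and −0.03, a difference of 3.10), CHKov1 (1.64 and −0.29, a difference of 2.00), kraken (1.40 and −0.23, a difference of 1.70), Mtap (2.93 and −0.71, a difference of 3.70) and AP-2sigma (11.48 and −0.03, a difference of 11.27). The fitted values of AP-2sigma and lncRNA:CR46006 depend on the prior count, since AP-2sigma had no count in the 3 background pulldowns and lncRNA:CR46006 had 1 over the 3 wild type pulldowns. The test of the difference holds the same uninjured libraries that gave the calls before injury, so genes called there are favoured in it. Without 1 library the number of genes called for a difference ran from 21 to 117, against 47 with all 24. Groups of 3 libraries were not tested for a library apart from the others.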

How the results depend on the processing

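The number of calls depended on the error model more than on scaling. DESeq2 gave 320 genes higher and 485 lower, a fit of all 36 libraries 108 and 205, and limma with weights per fraction 3 and 10, against 25 and 62. In the pulldown part these settings called 1365, 920 and 29 genes against 459, and in the input part 309, 252 and 669 against 126. Without 1 library the counts ran from 8 to 82 higher and 19 to 166 lower, 267 to 737 in the pulldown part and 68 to 212 in the input part. For the difference from injured heads no filter gave 95 genes against 47, and leaving out 1 library, chosen for the injured ones after seeing the data, 21 to 117. The causes were not tested. Scaling within each fraction gave 22 and 73, DESeq2 size factors 30 and 53, no filter 33 and 75, and the stricter filter 26 and 62, and the share of lower calls ran from 63.9% to 76.8% over them against 71.3%. It was 60.2% with DESeq2 and 65.5% with all 36 libraries.

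Replicate numbers did not pair the libraries, since deviations of same-numbered libraries correlated at −0.0222 to 0.0251. With the replicate block 12 genes were called higher and 34 lower, 272 in the pulldown part, 110 in the input part and 26 for the difference from injured heads.

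No called gene changed direction under any alternative. The log2 enrichment contrast of w, which was not called, changed sign at scaling within fractions (−0.0036), with limma (−0.047) and without single libraries (−0.56 to 0.57). Over 90 genes, 1310 of 1889 values kept their direction and side of the threshold, 570 kept the direction only and 9 changed sign. Pulldown depth limits the comparison, since 40 of 60 odorant receptor genes had no pulldown count and 9 could be tested.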
